A study of Mus musculus with 6 samples.

Results

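The genes of Wnt ligands, of the Frizzled receptors that bind them and of the secreted proteins that hold them back were examined in mouse cornea. They were taken as every gene of the deposited count table whose symbol is Wnt, Fzd, Sfrp or Dkk with its number, together with Wif1. This gave 38 of 35673 genes, made up of 19 ligands, 10 receptors and 9 secreted antagonists. RNA had been sequenced from 3 libraries titled Cationorm and 3 titled Control, from the corneas of male C57BL/6J mice aged 6 to 8 weeks. Cationorm is an eye drop for dry eye, made of oil droplets with a positive charge in water. The protocol given for every sample describes dry eye brought on by benzalkonium chloride at 0.1% (5 µL per eye) together with contact lenses worn for 6 h per day, after which eyes received normal saline, hyaluronic acid or Cationorm in drops of 5 µL for 14 days. All 6 libraries carry the tag of this model as their condition and the entry wild-type as their treatment, so the labels do not settle whether the Control mice had the model or saline drops. They also do not say whether a library came from 1 animal or from pooled corneas, and p-values therefore measure the spread between these libraries, which may be technical.

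Wnt proteins are lipid-modified secreted glycoproteins that bind a Frizzled receptor on the cell surface. With the co-receptors Lrp5 or Lrp6 this stabilises β-catenin, which enters the nucleus and works with Tcf and Lef factors, while other Wnt and Frizzled pairs act through planar cell polarity and calcium. Secreted Frizzled-related proteins (Sfrp) and Wif1 bind Wnt proteins outside the cell, and Dkk1, Dkk2 and Dkk4 act on Lrp5 and Lrp6. In mice, loss of Dkk2 turns the ocular surface epithelium towards skin, and in human limbal cells WNT7A acts upstream of PAX6, a regulator of corneal identity. In the deposited annotation all 38 genes carry a gene ontology term that names the Wnt signalling pathway. The separate pathway name for Wnt signalling is given to 37 of them. The exception is Dkk3, a divergent Dickkopf protein. It is counted here with the secreted antagonists by its symbol, and whether it holds back Wnt signalling in the cornea was not tested.

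The libraries held between 32486043 counts (Cationorm 1) and 39193311 counts (Control 1). Levels are given as CPM, the count of a gene scaled to library size with TMM factors. Markers of corneal epithelium dominated every library, with a summed level of 57721 to 62410 CPM in Cationorm and 55770 to 59823 CPM in Control over the 7 markers in the table. Likeness between libraries did not follow the groups alone. Cationorm 3 and Control 3 were the most alike of all pairs, with a correlation across genes (Pearson's r, log2 scale) of 0.994. The least alike pair was also from different groups, Control 2 and Cationorm 2 at 0.976. Pairs within a group lay between these, at 0.985 to 0.987 between Cationorm libraries and 0.986 to 0.989 between Control libraries. Markers of neighbouring eye tissues were present in all 6 libraries at unequal levels, and those that run with a result are given beside it.

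No family member passed the test for a difference between Cationorm and Control. Of the 38 genes, 33 had enough counts to be tested, and 24 of these had a higher fitted level in Cationorm and 9 a lower one, where 51.2% of all genes tested were higher. The most abundant antagonist, Dkk3, had a log2 fold change of 0.35 ± 0.12 (SE), and the main ligand (Wnt4) and receptor (Fzd6) had 0.03 ± 0.06 and 0.06 ± 0.07. edgeR's quasi-likelihood test with Benjamini-Hochberg adjustment called 0 of the 33 members and 0% of all 18804 genes tested, with a smallest adjusted p of 0.550 among the members. DESeq2 on the same genes also called 0 members (smallest adjusted p 0.205), against 0.381% of the 14426 genes to which it gave an adjusted p, and limma-voom called 0. In edgeR, 2 members had an unadjusted p under 0.05, Dkk3 and Wif1, both higher in Cationorm. That is 6.06% of the tested members against 8.73% of all genes tested (5.16% higher and 3.57% lower).

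The median log2 fold change of the 33 members was 0.11, against 0.01 over all genes tested, and it was 0.11 for ligands, 0.09 for receptors and 0.25 for antagonists. It was 0.06 without Cationorm 2 and likewise 0.06 without Control 2. The groups did not overlap in 6 members, Wnt7b, Wnt5b, Fzd5, Dkk3 and Sfrp5 on the higher side and Fzd10 on the lower. That is 18.2% of the tested members, against 14.8% of all genes tested (8.73% higher and 6.09% lower). The number of members at an unadjusted p under 0.05 depended on single libraries: it was 2 without Cationorm 1 (6.06%, against 3.74% of all genes in the same fit), 1 without Cationorm 2 (3.03% against 4.19%) and 4 without Cationorm 3 (12.1% against 15.1%). It was 0 without Control 1 (3.93% of all genes), 0 without Control 2 (4.64%) and 10 without Control 3 (30.3% against 14.9%).

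**Figure D1:**
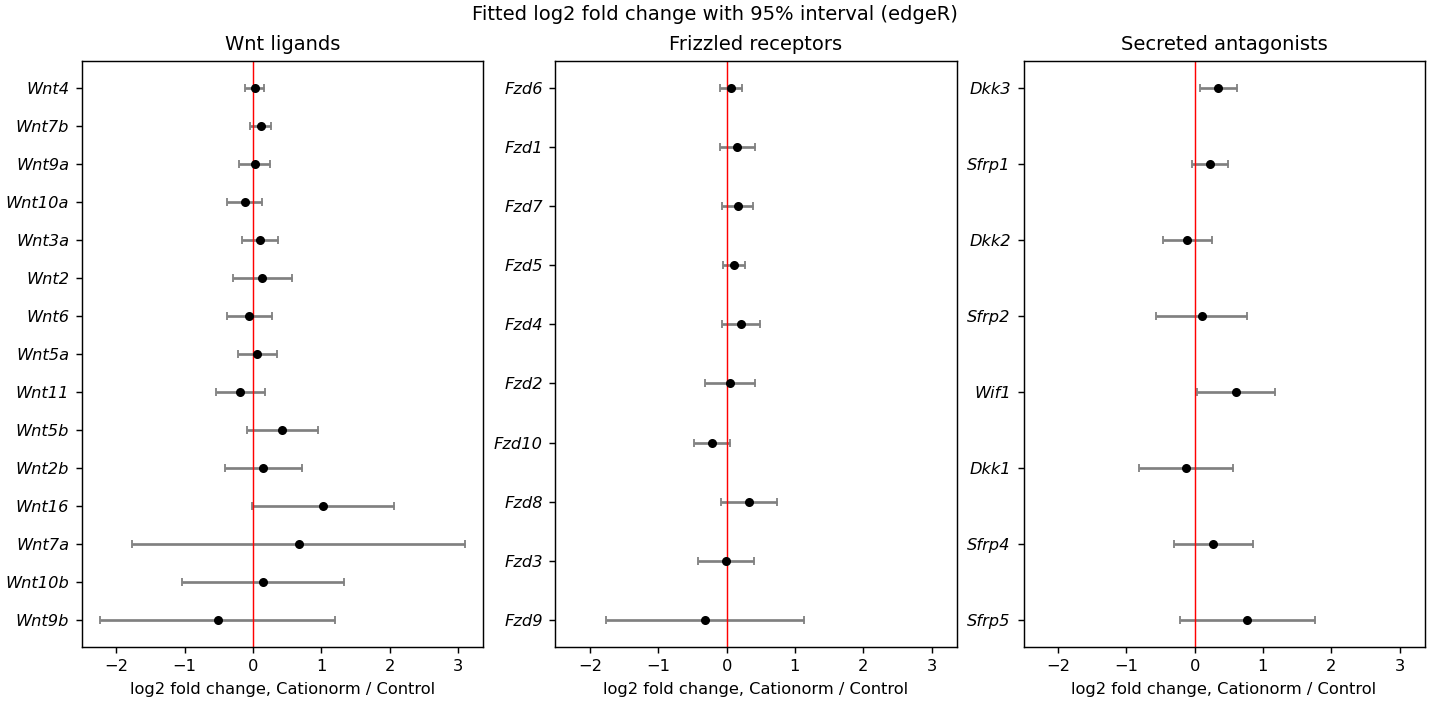
Fitted log2 fold change of Cationorm over Control (x axis, log2 scale) for the 33 tested members by role, ordered by level, with bars for the 95% interval from edgeR. The intervals of Dkk3 and Wif1 lie above 0, all others include 0, and those of the scarce genes Wnt7a, Wnt9b and Fzd9 are the widest.

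A few genes carried most of the message in each role. Levels of different genes were compared per kilobase of exon (CPM per kb). Dkk3 was the most abundant member of all, at 170 ± 7.98 CPM per kb in Cationorm and 134 ± 22.0 in Control (SD, n = 3 each). Wnt4 followed at 80.6 ± 2.99 in Cationorm and 79.2 ± 2.70 in Control, and then Fzd6 at 44.4 ± 2.99 in Cationorm and 42.5 ± 0.870 in Control and Sfrp1 at 43.9 ± 2.13 in Cationorm and 37.6 ± 5.83 in Control, whose ranges overlapped. Wnt4 made up 42.5 ± 0.832% of the summed ligand level per kb in Cationorm and 42.9 ± 0.640% in Control. Fzd6 made up 50.2 ± 0.356% of the receptor level in Cationorm and 51.3 ± 1.77% in Control, and Dkk3 72.4 ± 1.84% of the antagonist level in Cationorm and 69.5 ± 1.44% in Control. The leading ligands, receptors and antagonists were thus the same genes in both groups.

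**Figure D2:**
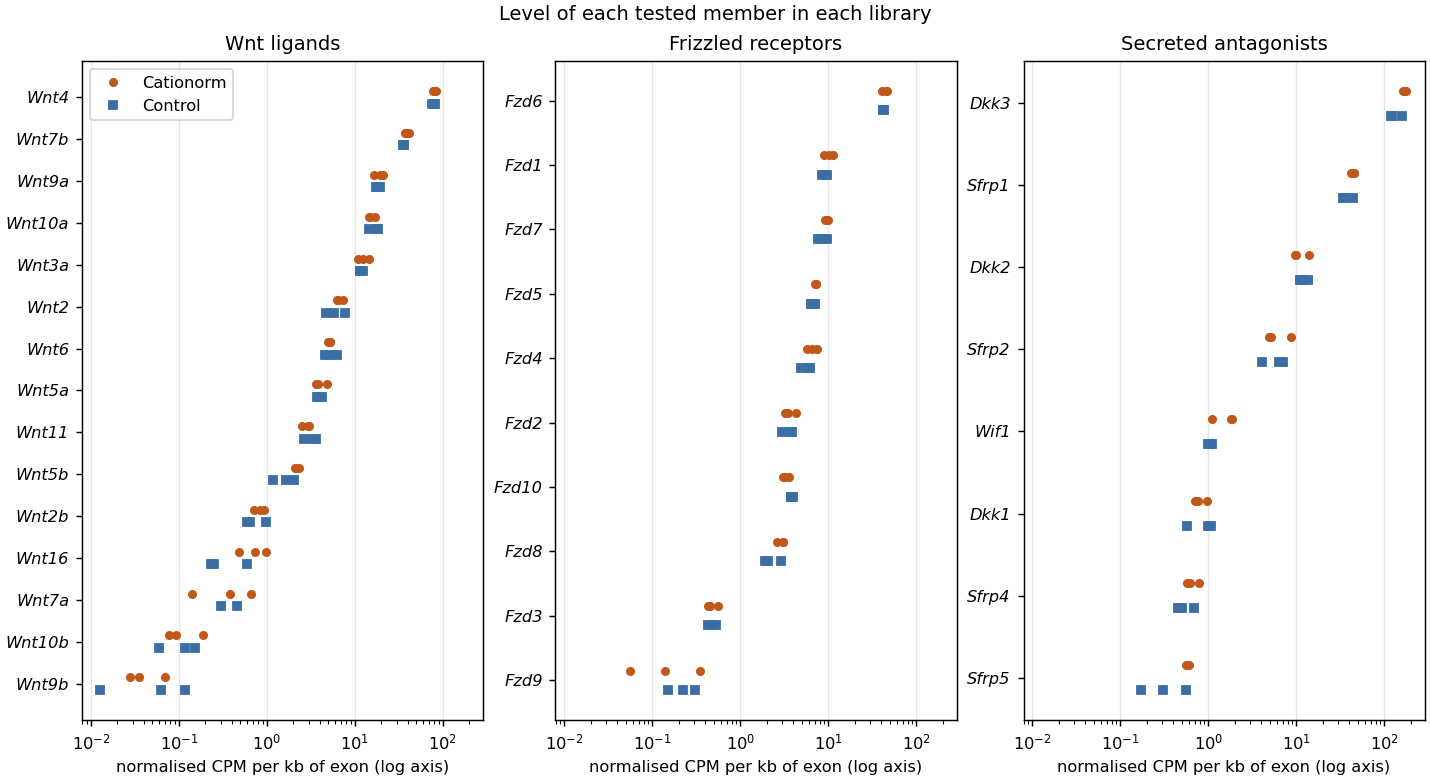
Level of each tested member in each library, in normalised CPM per kb of exon on a log axis, with Cationorm as circles above Control as squares and genes ordered by their mean. Levels span from Wnt9b at the bottom of the ligands to Dkk3 at the top of the antagonists, and the libraries of a gene lie close together except for scarce genes. A value of 0 (Wnt7a in Control 1) cannot be drawn on this axis.

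Among the ligands the order by CPM per kb was Wnt4, Wnt7b, Wnt9a, Wnt10a, Wnt3a, Wnt2, Wnt6, Wnt5a, Wnt11, Wnt5b, Wnt2b, Wnt16, Wnt7a, Wnt10b and Wnt9b. Wnt4 and Wnt7b each stood clear of the next gene in every library. The ranges over the 6 libraries overlapped between Wnt9a and Wnt10a, between Wnt2, Wnt6 and Wnt5a, and between each gene and the next from Wnt2b downwards. Within a library, Wnt9a was above Wnt10a and Wnt6 above Wnt5a in 6 of 6, and Wnt2 above Wnt6 in 5 of 6. From Wnt2b down to Wnt9b each gene was above the next in 4 or 5 of the 6 libraries. Wnt8a, Wnt3, Wnt8b and Wnt1 were not tested, since none of them reached more than 4 counts in a library. Wnt1, the founding family member, had 0 counts in all 3 Cationorm libraries, which allows a level of up to 0.0951 CPM in the shallowest of them (3 counts, counting error only), and 4 counts in Control 2 as its only detection. Wnt3 was seen with 2 counts in each Cationorm library and 1 count in Control 1, which is too few for a comparison.

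Wnt4, a ligand known for both β-catenin-dependent and other signalling, was at 333, 352 and 329 CPM in Cationorm 1 to 3 and at 338, 339 and 319 CPM in Control 1 to 3. The groups overlapped almost fully, and the 95% interval of the log2 fold change ran from -0.11 to 0.17 (edgeR adjusted p = 0.890). Wnt7b, a ligand of β-catenin signalling in many epithelia, was at 183, 203 and 186 CPM in Cationorm 1 to 3 and at 173, 178 and 179 CPM in Control 1 to 3. Every Cationorm library was above every Control library by a small margin, with a log2 fold change of 0.11 ± 0.06 (SE) that did not pass (adjusted p = 0.571). Its close relative Wnt7a was scarce, at 0.444, 1.22 and 2.10 CPM in Cationorm 1 to 3 and 0, 1.44 and 0.967 CPM in Control 1 to 3, and the 95% interval of its log2 fold change ran from -1.76 to 3.10.

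Wnt9a, known from joint development in mice, was at 55.1, 69.5 and 63.9 CPM in Cationorm 1 to 3 and at 65.1, 61.6 and 58.6 CPM in Control 1 to 3. Wnt10a, whose loss in mice and people affects hair, teeth and other skin appendages, was at 36.8, 42.4 and 36.3 CPM in Cationorm 1 to 3 and at 44.0, 45.5 and 36.3 CPM in Control 1 to 3. Both genes overlapped between the groups, with log2 fold changes of 0.02 ± 0.10 for Wnt9a and -0.12 ± 0.11 for Wnt10a (SE). Wnt5b, which acts mainly outside the β-catenin branch, was at 5.68, 6.21 and 5.55 CPM in Cationorm 1 to 3 and at 3.10, 4.41 and 5.44 CPM in Control 1 to 3. Its groups did not overlap, but Cationorm 3 lay only just above Control 3. Its log2 fold change was 0.43 ± 0.22 (adjusted p = 0.550), and 0.24 without Control 1.

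The largest fitted difference of any member was that of Wnt16, a ligand known from bone and chosen for description after its values were seen. It was at 4.25, 3.21 and 2.10 CPM in Cationorm 1 to 3 and at 1.0, 1.1 and 2.62 CPM in Control 1 to 3. The groups overlapped, with Cationorm 3 below Control 3. Its log2 fold change was 1.02 ± 0.44 (SE), with a 95% interval from -0.02 to 2.06 and an edgeR adjusted p of 0.550. The other 8 tested ligands had overlapping groups and log2 fold changes between -0.52 (Wnt9b) and 0.15 (Wnt2b).

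Several Wnt genes lie side by side in the genome as old duplicate pairs, and the pairs fell into different classes of level. In the RefSeq annotation of GRCm38.p6, Wnt6 neighbours Wnt10a on chromosome 1, Wnt3a neighbours Wnt9a and Wnt9b neighbours Wnt3 on chromosome 11, and Wnt10b neighbours Wnt1 on chromosome 15. The genes of the first pair averaged 5.24 (Wnt6) and 16.3 (Wnt10a) CPM per kb over the 6 libraries, and those of the second 12.2 (Wnt3a) and 18.7 (Wnt9a). Wnt9b averaged 0.0543 CPM per kb beside 0.0105 for Wnt3, and Wnt10b averaged 0.115 beside 0.00808 for Wnt1. The lowest library value in the first and second pair was 4.56 CPM per kb (Wnt6), and the highest in the other pairs was 0.187 (Wnt10b). Wnt9b and Wnt10b still had counts in every library, while Wnt3 and Wnt1 did not.

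The sequence before the start of transcription was looked at for the letters that Tcf and Lef factors bind, since some genes of the family are themselves targets of the pathway. RefSeq windows of 300 bases (250 before and 50 after a start, GRCm38.p6) were at hand for 26 of the 38 members, 29 windows in all. CTTTGAT, or ATCAAAG on the other strand, stood in 2 of the 29 windows (6.90%), those of Wnt5b and Wnt11, against 3.73% of all 32851 windows, and the TATA box letters TATAAA or TTTATA in 5 (17.2%) against 13.6%. The windows of the family were rich in G and C, with a median of 66.7% against 52.7% for all windows. The 250 bases before the start are shown for Wnt4, the most abundant ligand, for the 2 genes with the Tcf letters, of which Wnt5b is a member whose groups did not overlap, and for Dkk2, with motif matches in capitals. A match says only that the letters are there.
Wnt4 (chr4:137277385-137277634, plus strand): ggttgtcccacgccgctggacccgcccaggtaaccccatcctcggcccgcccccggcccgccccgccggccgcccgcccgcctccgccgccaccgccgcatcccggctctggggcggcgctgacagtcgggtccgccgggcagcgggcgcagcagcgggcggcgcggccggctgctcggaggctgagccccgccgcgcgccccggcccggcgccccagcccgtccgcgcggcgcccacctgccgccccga
Wnt5b (chr6:119449387-119449636, minus strand, 1 of 3 starts): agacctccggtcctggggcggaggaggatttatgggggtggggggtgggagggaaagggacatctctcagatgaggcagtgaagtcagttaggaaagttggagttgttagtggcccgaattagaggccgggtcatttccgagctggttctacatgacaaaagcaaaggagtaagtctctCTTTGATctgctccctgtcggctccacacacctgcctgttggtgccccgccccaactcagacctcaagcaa
Wnt11 (chr7:98834862-98835111, plus strand, 1 of 2 starts): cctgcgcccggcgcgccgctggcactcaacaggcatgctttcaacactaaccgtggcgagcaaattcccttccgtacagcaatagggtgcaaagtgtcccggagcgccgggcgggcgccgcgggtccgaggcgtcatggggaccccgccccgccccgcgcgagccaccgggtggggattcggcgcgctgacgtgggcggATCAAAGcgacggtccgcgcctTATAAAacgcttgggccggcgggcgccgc
Dkk2 (chr3:132085042-132085291, plus strand): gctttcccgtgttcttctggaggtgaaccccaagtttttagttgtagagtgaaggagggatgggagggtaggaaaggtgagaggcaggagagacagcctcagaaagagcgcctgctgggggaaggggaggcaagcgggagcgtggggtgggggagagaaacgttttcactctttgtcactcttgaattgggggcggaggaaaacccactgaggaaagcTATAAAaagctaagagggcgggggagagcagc
In Wnt5b the capitals are CTTTGAT, with their first base 71 bases before the start. In Wnt11 they are ATCAAAG from 51 bases and TATAAA from 29 bases before the start, and in Dkk2 TATAAA from 32 bases before it. Wnt4 holds neither motif and is 85.2% G and C. Wnt11, a ligand of planar cell polarity, was at 12.2, 12.5 and 10.5 CPM in Cationorm 1 to 3 and at 14.0, 15.2 and 10.9 CPM in Control 1 to 3, with a log2 fold change of -0.19 ± 0.15 (SE). The fitted value of Wnt5b had the opposite sign, and neither gene passed the test.

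Among the receptors Fzd6 stood clear of all others in every library, followed per kb by Fzd1, Fzd7, Fzd5, Fzd4, Fzd2, Fzd10, Fzd8, Fzd3 and Fzd9. The ranges overlapped between Fzd1 and Fzd7, between Fzd5 and Fzd4, and between Fzd2, Fzd10 and Fzd8 over the 6 libraries. Within a library, Fzd10 was above Fzd8 in 6 of 6 and Fzd5 above Fzd4 in 5 of 6, while Fzd1 was above Fzd7, and Fzd2 above Fzd10, in 3 of 6. All 10 receptors were detected in every library, and Fzd9 was the scarcest, with 4 to 30 counts. Fzd6, known for orienting hair follicles through planar cell polarity, was at 225, 219 and 198 CPM in Cationorm 1 to 3 and at 209, 204 and 201 CPM in Control 1 to 3. Cationorm 3 was the lowest and Cationorm 1 the highest of all 6 libraries, so the groups overlapped (edgeR adjusted p = 0.744).

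Fzd5, needed for eye development, was at 49.2, 49.7 and 50.1 CPM in Cationorm 1 to 3 and at 45.2, 43.8 and 49.1 CPM in Control 1 to 3. Its groups did not overlap, although Control 3 nearly reached Cationorm 1, and the log2 fold change of 0.11 ± 0.07 (SE) did not pass (adjusted p = 0.578). An antisense gene (Gm38058) overlaps the exons of Fzd5 in the GENCODE M21 annotation, and with no stated strand setting its reads cannot be told apart from those of Fzd5. Fzd10 was at 9.86, 11.6 and 10.5 CPM in Cationorm 1 to 3 and at 12.1, 12.9 and 12.2 CPM in Control 1 to 3. It was the only tested member whose Cationorm libraries all lay below the Control libraries, with a log2 fold change of -0.22 ± 0.11 (adjusted p = 0.550).

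Fzd4, the receptor for norrin in retinal vessels, was at 43.9, 49.7 and 38.5 CPM in Cationorm 1 to 3 and at 41.5, 33.3 and 39.4 CPM in Control 1 to 3. Fzd1 was at 48.1, 42.9 and 37.1 CPM in Cationorm 1 to 3 and at 35.4, 41.1 and 38.3 CPM in Control 1 to 3. Fzd7, a receptor found in many stem and progenitor cells, was at 43.9, 45.5 and 41.2 CPM in Cationorm 1 to 3 and at 38.7, 34.4 and 43.7 CPM in Control 1 to 3. All of these overlapped between the groups, with log2 fold changes of 0.21 ± 0.12 for Fzd4, 0.16 ± 0.11 for Fzd1 and 0.16 ± 0.10 for Fzd7 (SE). Fzd8 had the largest receptor value, 0.33 ± 0.17, at 18.1, 18.2 and 15.5 CPM in Cationorm 1 to 3 and 11.5, 12.3 and 17.4 CPM in Control 1 to 3, where Control 3 again lay among the Cationorm libraries. Fzd2, Fzd3 and Fzd9 had log2 fold changes of 0.05, -0.01 and -0.31, with overlapping groups.

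In the edgeR fit with all libraries, the 2 members with an unadjusted p under 0.05 were both from the secreted antagonist group. DESeq2 gave Dkk3, Wif1 and the ligand Wnt16 (9.09% of tested members, against 9.43% of all genes). The same members came from edgeR without the filter (7.89% against 7.35%). limma-voom gave Dkk3 and Wnt16 (6.06% against 11%), and edgeR with the replicate number as a block gave Dkk3 alone (3.03% against 4.67%). Dkk3 was at 573, 599 and 545 CPM in Cationorm 1 to 3 and at 409, 405 and 535 CPM in Control 1 to 3. All Cationorm libraries were above all Control libraries, and Control 3 was far nearer to them than Control 1 and Control 2 were. The log2 fold change was 0.35 ± 0.12 (SE), with a 95% interval from 0.08 to 0.62, an unadjusted p of 0.0189 and an adjusted p of 0.550 in edgeR and 0.205 in DESeq2. It was 0.49 without Control 3 and 0.26 without Control 2. The share of Dkk3 in the summed antagonist level per kb was highest in Cationorm 2, at 73.9%, and lowest in Control 2, at 68.6%. The groups overlapped for this share, with 71.2% in Control 3 above 70.4% in Cationorm 1.

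Sfrp1, which binds Wnt proteins through a Frizzled-like domain, was at 198, 197 and 181 CPM in Cationorm 1 to 3 and at 148, 151 and 194 CPM in Control 1 to 3. Control 3 lay among the Cationorm libraries, as it did for Wnt16 and Fzd8, and the log2 fold change of 0.22 ± 0.11 (SE) did not pass (edgeR adjusted p = 0.550). Without Control 3 it was 0.36. Wif1 was at 4.44, 2.65 and 4.46 CPM in Cationorm 1 to 3 and at 2.52, 2.65 and 2.42 CPM in Control 1 to 3. Here Cationorm 1 and Cationorm 3 were high and Cationorm 2 was level with Control 2, which gave 0.60 ± 0.24 with an unadjusted p of 0.0419 (adjusted p = 0.550). Sfrp5 was at 1.14, 1.11 and 1.06 CPM in Cationorm 1 to 3 and at 0.325, 0.577 and 1.05 CPM in Control 1 to 3, so the groups were separated only by the distance between Cationorm 3 and Control 3, with 0.77 ± 0.42 (adjusted p = 0.557).

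Dkk2, the antagonist that keeps the mouse ocular surface corneal, was at 51.2, 37.0 and 35.8 CPM in Cationorm 1 to 3 and at 43.0, 50.2 and 40.3 CPM in Control 1 to 3. The groups overlapped, with a log2 fold change of -0.11 ± 0.15 (SE) and an interval from -0.47 to 0.26 (edgeR adjusted p = 0.813). Dkk1, the classical Lrp5 and Lrp6 blocker, was scarcer than Dkk2 per length, with means over the 6 libraries of 0.842 and 11.6 CPM per kb. It was at 1.96 ± 0.319 CPM in Cationorm and 2.13 ± 0.644 CPM in Control (SD, n = 3 each). Sfrp2 ranged from 10.5 to 18.9 CPM in Cationorm and from 8.88 to 15.05 CPM in Control, and Sfrp4 from 2.37 to 3.26 CPM in Cationorm and from 1.87 to 2.87 CPM in Control. Dkk4 had 0 counts in all Cationorm libraries and at most 2 counts in any Control library, and was not tested.

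**Figure D3:**
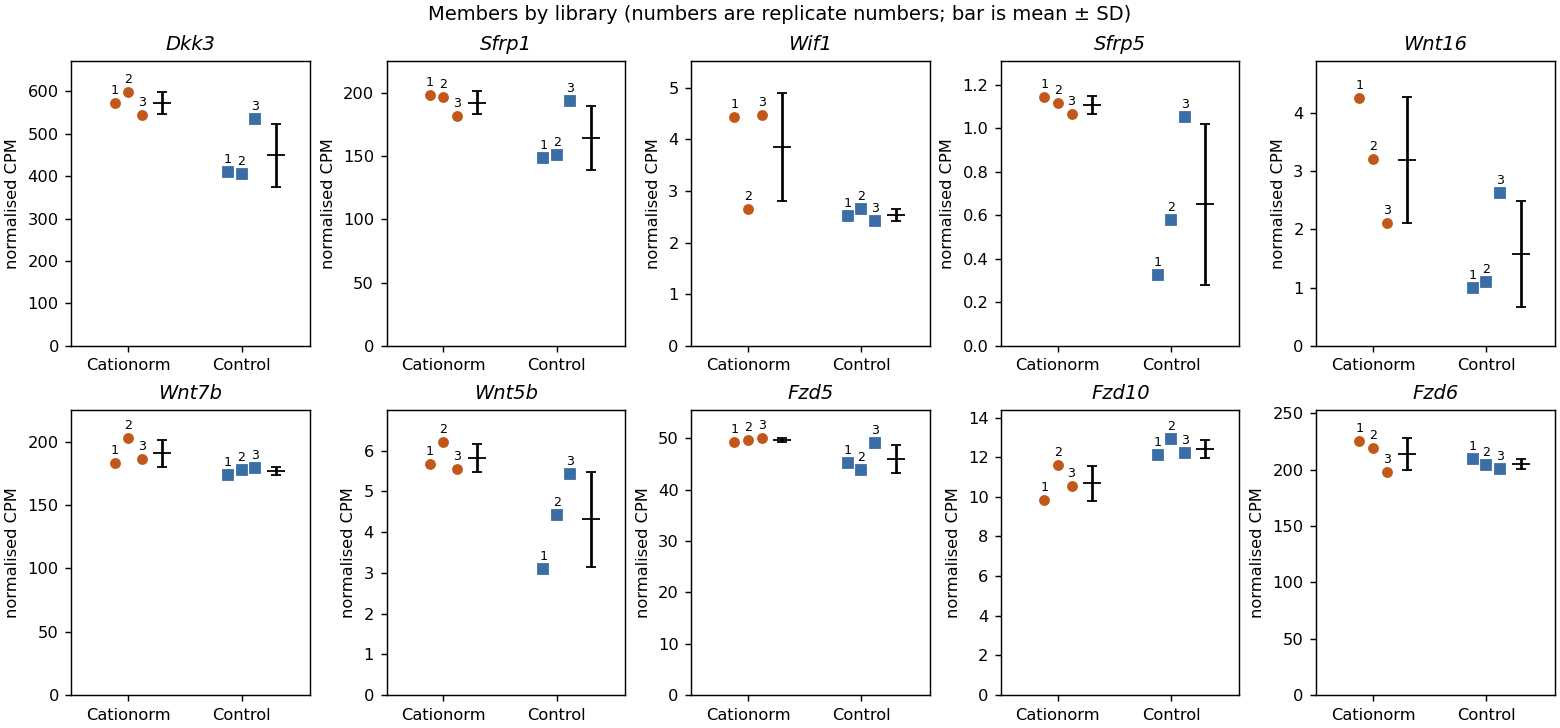
Normalised CPM (y axis, from 0) of 10 members in each library, Cationorm as circles and Control as squares, with replicate numbers and the mean ± SD beside the points. For Dkk3, Sfrp1, Sfrp5, Wnt16 and Wnt5b, Control 3 is the highest Control library and lies near or among the Cationorm libraries, while Fzd6 overlaps fully and Fzd10 is lower in Cationorm.

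Markers of some neighbouring tissues were, like Dkk3, higher in every Cationorm library. The 8 genes for melanocytes, iris and ciliary body summed to 1481, 1199 and 1171 CPM in Cationorm 1 to 3 and to 491, 424 and 1053 CPM in Control 1 to 3. The 6 smooth muscle and pericyte genes summed to 326, 340 and 260 CPM in Cationorm 1 to 3 and to 141, 117 and 253 CPM in Control 1 to 3. In both lists every Cationorm library was above every Control library and Control 3 was the highest Control library, as for Dkk3, and all 14 genes had a higher fitted level in Cationorm. The 6 corneal endothelium genes summed to 1188 to 1334 CPM in Cationorm and to 1095 to 1155 CPM in Control. Stromal keratocyte genes summed to 2769 to 3985 CPM in Cationorm and to 3130 to 3266 CPM in Control. This sum joins genes of opposite direction, with 3 of the 8 higher and 5 lower in fitted level. Kera was lower in every Cationorm library, with a log2 fold change of -0.83 ± 0.28 (SE). Lum had -0.66 ± 0.27 with overlapping groups. Ptgds was higher in every Cationorm library, with 0.999 ± 0.322. Each had an edgeR adjusted p of 0.550. The 12 retina genes summed to 2043 to 6516 CPM in Cationorm and 5325 to 7913 CPM in Control, with all 12 lower in fitted level. Lens genes summed to 1834 to 6870 CPM in Cationorm and 92.2 to 3494 CPM in Control, and skeletal muscle genes to 80.6 to 1856 CPM in Cationorm and 105 to 1140 CPM in Control. The 5 Schwann cell genes summed to 272, 274 and 247 CPM in Cationorm 1 to 3 and to 228, 220 and 252 CPM in Control 1 to 3, with 5 of 5 higher in fitted level. The 8 vascular endothelium genes summed to 118, 122 and 112 CPM in Cationorm 1 to 3 and to 79.9, 74.1 and 122 CPM in Control 1 to 3, with 7 of 8 higher. In both lists Control 3 was the highest Control library and lay among or above the Cationorm libraries, as for Sfrp1 and Fzd8. No marker of these lists was at 0 in a whole group. The part of these tissues in the values of Dkk3 and the other members was not tested, and in whole tissue fewer cells of a type and less RNA per cell cannot be told apart.

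**Figure D4:**
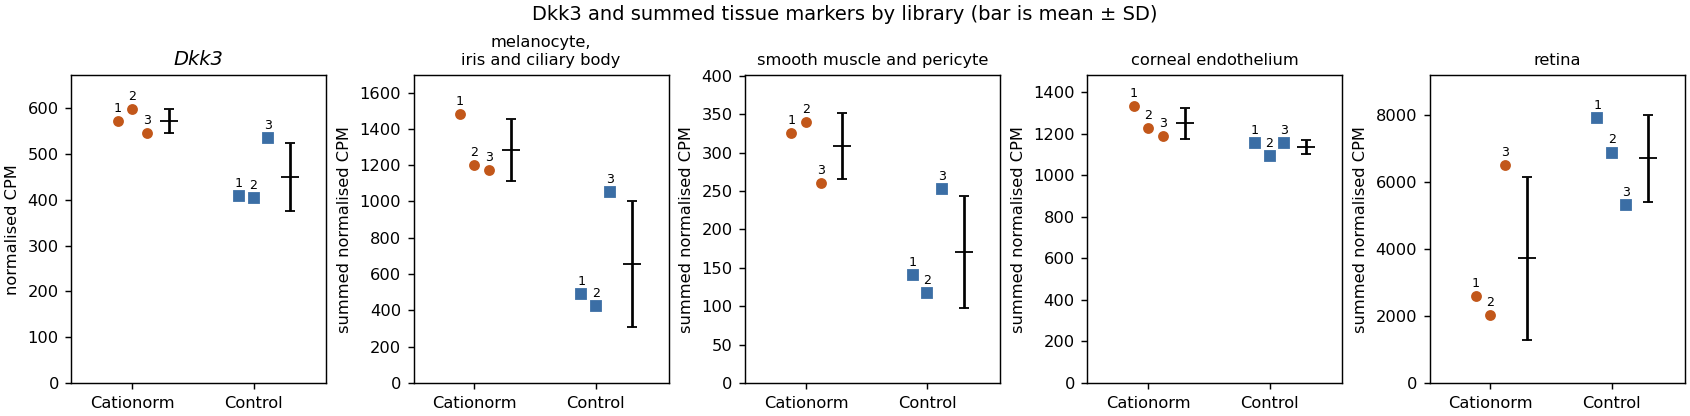
Dkk3 in normalised CPM (left panel) beside the summed normalised CPM of markers of 4 other tissues of the eye, by library, Cationorm as circles and Control as squares, with replicate numbers and mean ± SD. Dkk3, the pigment cell list and the smooth muscle list share the order of groups and the high Control 3, and the retina list is lower in Cationorm 1 and Cationorm 2.

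The other genes of the pathway were taken from a list of 72 genes in the table, of which 69 could be tested. None passed the test over all genes (edgeR, 0 higher and 0 lower), 49 had a higher and 20 a lower fitted level in Cationorm, and the median log2 fold change was 0.13. At an unadjusted p under 0.05 in edgeR there were 12, or 17.4% against 8.73% of all genes tested, 9 higher and 3 lower. limma-voom and DESeq2 each had 14, or 20.3%, against 11% of all genes in limma-voom and 9.43% in DESeq2. Groups did not overlap in 15, or 21.7% against 14.8% of all genes. The count at an unadjusted p under 0.05 in edgeR was 0 without Cationorm 1 (against 3.74% of all genes in the same fit). It was 6 without Cationorm 2 (8.7% against 4.19%) and 11 without Cationorm 3 (15.7% against 15.1%). It was 3 without Control 1 (4.35% against 3.93%), 5 without Control 2 (7.14% against 4.64%) and 21 without Control 3 (30% against 14.9%).

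Of the 8 tested genes in the list of feedback and target genes of β-catenin signalling, 4 had a higher and 4 a lower fitted level in Cationorm, and none passed. Axin2, a feedback inhibitor and the usual reporter of the pathway, was at 16.9, 13.4 and 14.9 CPM in Cationorm 1 to 3 and at 10.1, 10.7 and 14.3 CPM in Control 1 to 3. Control 3 lay between Cationorm 2 and Cationorm 3, and the log2 fold change of 0.37 ± 0.16 (SE) had an edgeR adjusted p of 0.550. On the higher side were also Nkd1, another feedback inhibitor, with 0.48 ± 0.20, its relative Nkd2 with 0.33 ± 0.19, and Tnfrsf19 with 0.38 ± 0.21. On the lower side were Ccnd1 and Myc, growth genes that answer to many signals, with -0.02 ± 0.10 and -0.06 ± 0.10, Ccn4 with -0.17 ± 0.30 and Ccn5 with -0.18 ± 0.32. In other lists, Notum, an enzyme that removes the lipid from Wnt proteins, had 0.82 ± 0.34. Apcdd1, a membrane inhibitor, had 0.36 ± 0.12 and no overlap between the groups, at 14.0 to 17.5 CPM in Cationorm and 11.9 to 12.7 CPM in Control. The nuclear factor Lef1, near 1 CPM, had 0.71 ± 0.36. Axin2, Nkd1, Notum, Apcdd1 and Lef1 each had an adjusted p of 0.550.

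Genes of Wnt release and reception had fitted values of both signs. Porcn, the enzyme that adds the lipid to Wnt proteins, was at 34.6, 36.4 and 36.6 CPM in Cationorm 1 to 3 and at 43.1, 38.4 and 40.8 CPM in Control 1 to 3, with a log2 fold change of -0.18 ± 0.07 (SE). Wls, which carries Wnt proteins to the cell surface, had 0.14 ± 0.08 with overlapping groups. All 11 tested co-receptors and other receptors had a higher fitted level in Cationorm, with 0.19 ± 0.07 for Lrp5, 0.13 ± 0.07 for Lrp6 and 0.38 ± 0.12 for Adgra2, which serves Wnt7 signalling in vessels of the mouse brain. The Lrp5 libraries were at 109, 105 and 101 CPM in Cationorm 1 to 3 and at 99.7, 86.8 and 88.0 CPM in Control 1 to 3, and did not overlap. β-catenin (Ctnnb1) was at 561, 564 and 542 CPM in Cationorm 1 to 3 and at 501, 463 and 530 CPM in Control 1 to 3, with 0.16 ± 0.07, and its nuclear partner Bcl9l had 0.20 ± 0.07. None of these passed (edgeR adjusted p of 0.550 for Porcn, Lrp5, Adgra2, Ctnnb1 and Bcl9l, 0.554 for Lrp6 and 0.574 for Wls).

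In the planar cell polarity list 9 of 10 genes had a higher fitted level in Cationorm, among them Vangl1 with 0.28 ± 0.09 (SE) and Daam2 with 0.54 ± 0.19. The tenth, Celsr3, a cadherin best known from neurons, was at 4.85, 3.29 and 11.2 CPM in Cationorm 1 to 3 and at 16.2, 13.2 and 11.3 CPM in Control 1 to 3, with -1.07 ± 0.42. Apc2, a largely neuronal relative of Apc, had -0.57 ± 0.22. All 4 had an edgeR adjusted p of 0.550. In Celsr3 Cationorm 3 was level with Control 3, and the retina list likewise was highest among the Cationorm libraries in Cationorm 3. Without Cationorm 3, Celsr3 passed the edgeR test, with -1.74 and an adjusted p of 0.0316. In that fit 350 of the 19170 genes tested passed, 335 of them lower in Cationorm, and 1 of the 70 tested pathway genes. The part of retinal tissue in the values of Celsr3 and Apc2 was not tested.

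**Figure D5:**
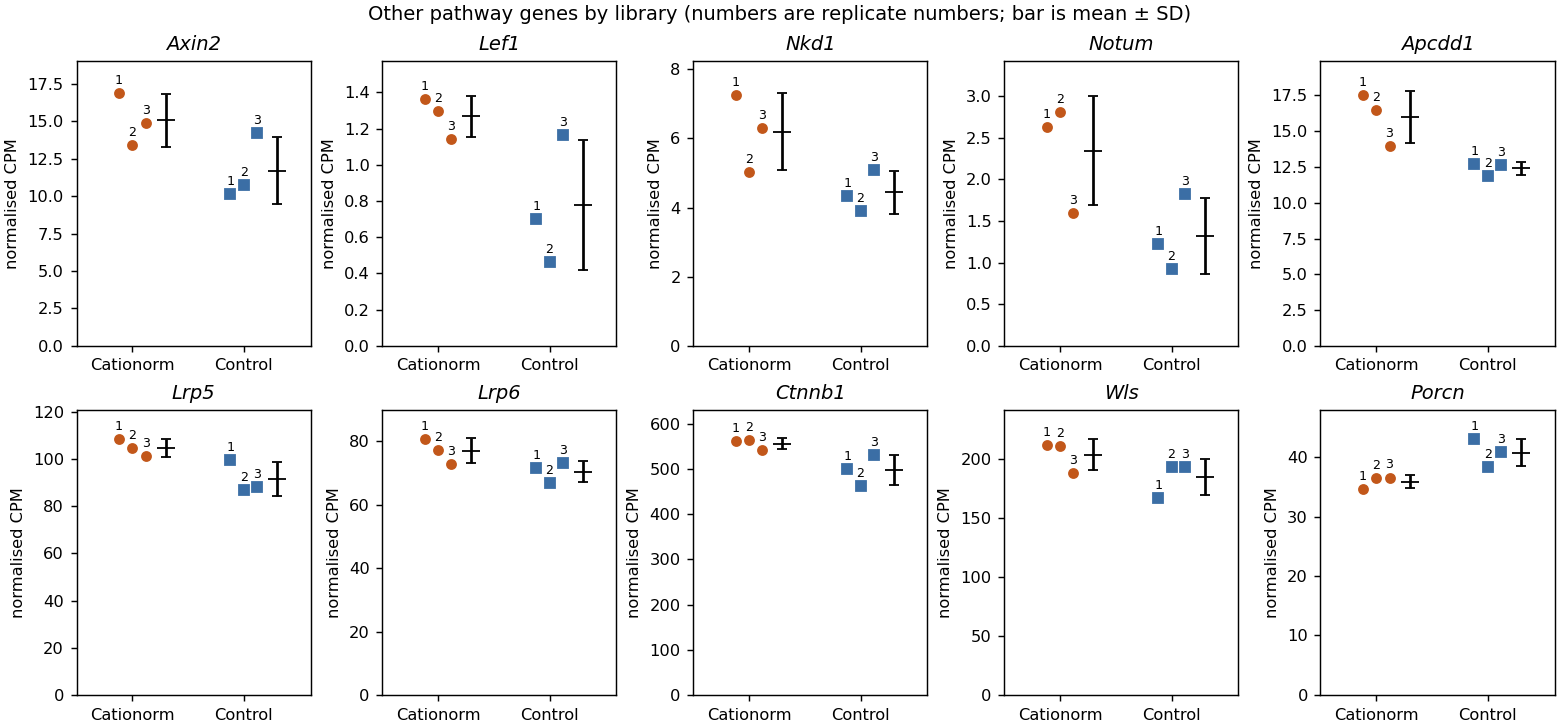
Normalised CPM (y axis, from 0) of 10 other pathway genes in each library, Cationorm as circles and Control as squares, with replicate numbers and mean ± SD. Apcdd1, Lrp5 and Ctnnb1 are higher in every Cationorm library, Porcn is lower in every one, and Axin2, Lef1, Nkd1, Notum, Lrp6 and Wls overlap between the groups.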

How the data were processed

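RNA-seq counts were analysed for 3 Cationorm and 3 Control libraries, grouped by sample title and matched to count columns by library name. The table deposited by the authors holds raw counts of reads for each gene, unscaled, per the file headers. TRIzol RNA went through mRNA enrichment into TruSeq libraries, per the labels' protocols. The submitters' processing notes list DESeq2, GRCm39 and mm39 without a role; for aligner, counter, annotation release and strand setting the sources used here give nothing. Among counts of 1 to 20, 62.2% to 65.1% were even in each library, and the cause was not tested; floors cover counting error only. Every pair of libraries differed by more than sampling noise, with 16.2 as the lowest ratio of chi-square to its degrees of freedom.

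Counts were scaled by TMM and filtered by filterByExpr (18804 of 35673 genes, at least 99.9% of counts). Cationorm was tested against Control with edgeR 4.0.16 (glmQLFit, glmQLFTest; R 4.3.3) without covariates, adjusted over all genes at 0.05, after a check on simulated counts. The SE is the fold change over the square root of F, and 95% intervals use the total degrees of freedom of the fit. Levels per kb use exon-union lengths of GENCODE M21 (GRCm38), an older build than the one listed. Exons of Fzd5, Fzd6, Sfrp2, Wnt5a, Wnt7b and Wnt11 overlap an antisense gene there, so their counts are uncertain.

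Members with values by library are the 12 with the highest mean CPM, not scaled to length, those whose groups did not overlap and those with an unadjusted p under 0.05 in edgeR. Pathway genes were named if in a fixed set of 7 or at an unadjusted p under 0.05, and other genes named, or given by library, were chosen after their values were seen. Members and lists were chosen with earlier results of these data known. The alternatives tried were each library left out, the replicate number as a block, DESeq2 1.42.0 and limma-voom (limma 3.58.1) as other tests, scaling by upper quartile or by DESeq2's factors, the filter dropped, and a filter that asks for 50 counts in total and 1 CPM in 3 libraries.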

Additional observations from a re-analysis of the deposited data

How the results depend on the processing

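The number of members called was 0 under every alternative run (other scaling, filters, DESeq2, limma-voom, the block and each library left out). Over all genes tested the count was 0 in the edgeR fit with all libraries and 55 with DESeq2. With 1 library left out it was between 0 and 350: 350 of 19170 without Cationorm 3 (335 of them lower), 8 of 19337 without Control 3 and 1 of 19341 without Control 2. Among the other pathway genes it was 0, and between 0 and 1 with 1 library left out, the 1 being Celsr3 without Cationorm 3; the cause was not tested. The median log2 fold change of the members ran from 0.06 to 0.16 with 1 library left out and from 0.10 to 0.11 under the other alternatives. Of the members named by level, overlap or p, the sign turned only for Wnt4 and Wnt9a, without Cationorm 2 and without Control 3. With 1 library left out, the log2 fold change of Wnt4 ran from -0.0202 to 0.0455 and that of Wnt9a from -0.0679 to 0.111. No pathway gene in the fixed set of 7 or at an unadjusted p under 0.05 in edgeR changed sign. The signs of the other pathway genes named (Nkd2, Tnfrsf19, Ccnd1, Myc, Ccn4 and Ccn5) were not followed across the alternatives. Whether replicate numbers pair the libraries was not settled, since the deviations of 3 libraries from their group mean are not independent of each other. These deviations correlated at -0.199, -0.343 and -0.209 between same-numbered libraries of the 2 groups, and at -0.188 to 0.42 between differently numbered ones. With the replicate number as a block, 0 genes, 0 members and 0 pathway genes were called and the median was 0.11. In the block fit 7 pathway genes and 1 member had an unadjusted p under 0.05 (10.1% and 3.03%, against 4.67% of all genes). Intervals were wider than 2 log2 units for Wnt7a, Wnt9b, Wnt10b, Wnt16 and Fzd9, and 5 members had too few counts for a test.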
